A study of Oryza sativa with 9 samples.

Results

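Transcripts of 6 genes of chlorophyll breakdown and leaf senescence were followed in rice leaves: SGR (LOC_Os09g36200), NYC1 (LOC_Os01g12710), NOL (LOC_Os03g45194), PAO (LOC_Os03g05310), NYC3 (LOC_Os06g24730) and OsNAP (LOC_Os03g21060). They were taken by their locus identifiers, 6 of the 55986 identifiers in the authors' expression table, and all 6 were among the 19345 genes tested. The names are those that came with the list, since neither the expression table nor the RefSeq gene table used here pairs these identifiers with a name.

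The libraries were made from leaves of paddy-grown rice plants aged 40 days. The wild type (WT) was titled NP. The mutant carried the genotype osatxr5c;osatxr6kd in 2 lines, osatxr5c;osatxr6kd-1 (line 1 here) and osatxr5c;osatxr6kd-2 (line 2 here), and each of the 3 groups held 3 libraries. The mutated rice genes correspond to ATXR5 and ATXR6, methyltransferases of histone H3 found in land plants. The labels do not say how the lines were made or what the letters after each allele stand for, nor whether a replicate is a separate plant, so p-values measure the spread between these libraries, which may be technical. The targeted genes were not analysed here, because no source used here pairs them with a locus identifier.

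Chlorophyll is taken apart in a fixed order of steps when a leaf ages or is kept in the dark. NYC1 and NOL are the subunits of chlorophyll b reductase, which starts the conversion of chlorophyll b to chlorophyll a. SGR (STAY-GREEN) belongs to the family that, in Arabidopsis, removes magnesium from chlorophyll a to give pheophytin a. NYC3 is the rice counterpart of the Arabidopsis pheophytinase, which cuts off the phytol tail, and PAO (pheophorbide a oxygenase) then opens the ring and ends the green colour. OsNAP is a NAC transcription factor that promotes leaf senescence in rice and has been linked to abscisic acid and to the activation of breakdown genes such as SGR, NYC1 and NYC3. Loss of SGR, NYC1, NOL or NYC3 in rice is known to delay yellowing.

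In these leaves SGR, PAO and OsNAP were lower in both mutant lines than in WT, while the chlorophyll b reductase genes NYC1 and NOL, and NYC3, did not pass the test against WT in either line. The lines differed in which gene fell most. SGR in line 2 was at 48.9% of its mean WT level, against 82.2% in line 1. OsNAP in line 1 was at 69.1%, against 84.7% in line 2. PAO was at 80.4% of WT in line 1 and 83.1% in line 2. Of these 6 differences from WT, the falls of SGR in line 2, OsNAP in line 1 and PAO in line 1 passed the test under every alternative setting run. The other 3 lay near the threshold. SGR in line 1 did not pass in 8 of the 17 alternative settings, OsNAP in line 2 in 6 and PAO in line 2 in 3. None of the 3 genes therefore passed in both lines under every setting.

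All values are the authors' TPM, a transcript abundance per gene length scaled to the same total in each library, so levels of different genes can be set side by side within a library. The number of reads behind a TPM value is unknown, and only the spread between libraries gives the precision. Leaf RNA is a bulk sample, so fewer cells of a type and less RNA per cell cannot be told apart. A list of 4 leaf loci (Rubisco small subunits and light-harvesting proteins) was present in every library, with a summed level of 26634 to 28448 TPM in WT, against 26503 to 27106 TPM for line 1 and 29302 to 30106 TPM for line 2. The sum hides differences between the loci. In the test used below, 1 of the 4 was lower in line 1, at 4983 to 5096 TPM against 5850 to 6367 TPM in WT, and 3 did not pass. In line 2, 2 were higher and 2 did not pass. Over all tested genes 15.7% were lower in line 1 and 13.5% higher in line 2. Of 5 floral organ loci, 4 were listed at 0 in all 9 libraries, and the list summed to 11.8 to 14.4 TPM in WT, against 8.28 to 12.5 TPM for line 1 and 12.5 to 14.4 TPM for line 2. A pair of root-associated loci, neither listed at 0, summed to 14.5 to 16.7 TPM in WT, against 13.8 to 14.2 TPM for line 1 and 11.6 to 13.3 TPM for line 2. The identifiers of these lists come from general knowledge of rice loci. The part of these differences in the results on the 6 genes was not tested.

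The 6 genes were expressed in every library, none at 0, and spanned about an order of magnitude. In WT the order of mean levels was NYC3 at 117 ± 13.4 TPM (SD, n = 3), NYC1 at 88.2 ± 4.60 TPM, PAO at 69.8 ± 1.91 TPM, OsNAP at 41.1 ± 1.02 TPM, SGR at 32.6 ± 2.42 TPM and NOL at 11.5 ± 0.663 TPM. No neighbours in that order overlapped between libraries of WT. The order was the same in both mutant lines, and the only neighbours whose ranges overlapped were OsNAP and SGR in line 1. Among the genes listed above 0 in a library, NYC3 lay between the percentiles 93.5 and 95.4 over the 9 libraries and NOL between 51.7 and 57.7. SGR moved most in this ranking, from between 75.9 and 79.5 in WT to between 57.3 and 63.0 in line 2.

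**Figure D1:**
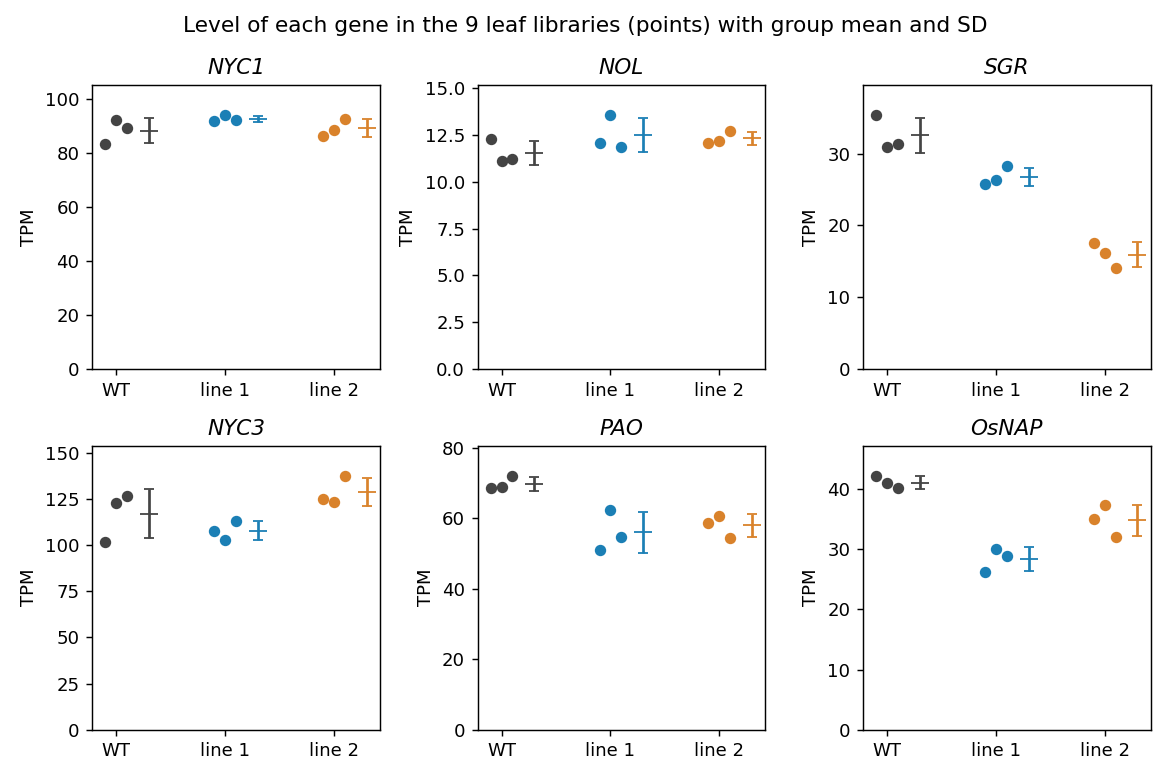
TPM of each of the 6 genes (vertical axes, each from 0) in the 3 libraries of WT, line 1 and line 2 (points), with the group mean and SD (bar). SGR falls to between 14.0 and 17.6 TPM in line 2, OsNAP is lowest in line 1 at 26.2 to 30.0 TPM, and the libraries of NYC1 and NOL overlap between each mutant line and WT.

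The comparisons with WT asked which of the 6 genes differ in each line. Changes were tested on log2(TPM + 1) in one limma fit over all genes, and a gene was called at an adjusted p (Benjamini-Hochberg, over the 19345 genes) under 0.05. In line 1 against WT 3 of the 6 genes were called, all lower, where 15.7% of all tested genes were called lower and 25.6% were called in either direction. In line 2 against WT 3 of the 6 were called, all lower, where 8.39% of all genes were called lower and 21.9% in either direction. The 3 genes were the same in both lines, where 10.9% of all tested genes were called in both lines with the same sign and 4.67% were lower in both. The 6 genes were proposed with earlier results of these data known, so these counts were given no test of their own, and both comparisons share the same WT libraries. The median change of the 6 genes was -0.19 in line 1 and -0.11 in line 2, against -0.06 and 0.00 over all tested genes.

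The split of calls over all genes depended on the scaling. Of the genes called in line 1, 38.8% were higher in the deposited values, 42.1% with quantile normalization and 56.3% with median-ratio scaling. For line 2 against WT the shares were 61.7% in the deposited values, 49.9% with quantile normalization and 59.6% with median-ratio scaling. For line 2 against line 1 they were 69.1% in the deposited values, 56.1% with quantile normalization and 50.1% with median-ratio scaling. No change called for the 6 genes reversed its sign under any alternative run.

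**Figure D2:**
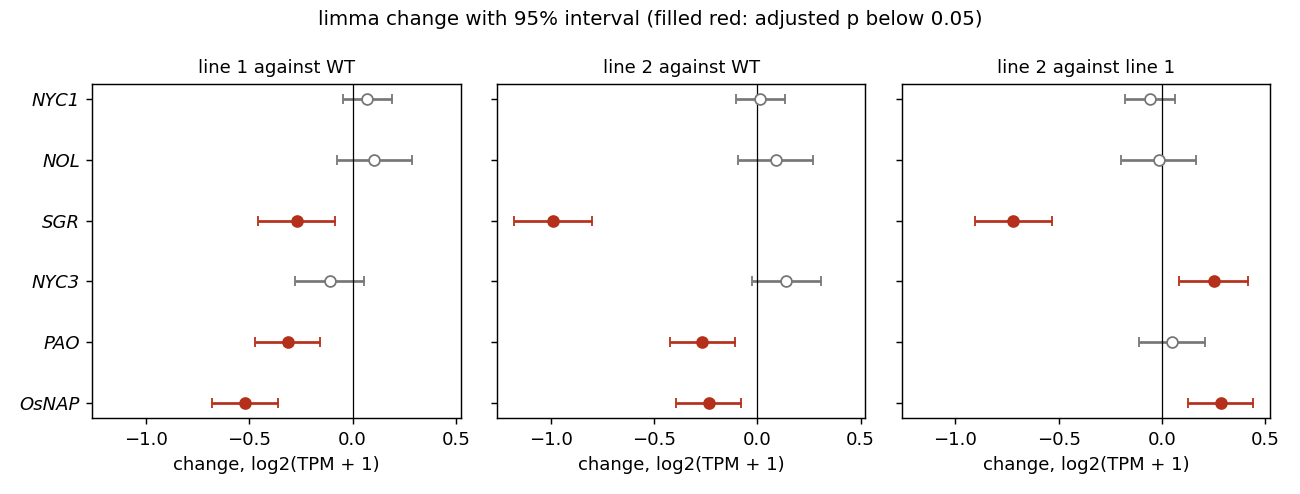
Change of each gene on the log2(TPM + 1) scale (horizontal axis) with its 95% interval from limma, for line 1 against WT, line 2 against WT and line 2 against line 1; filled red points passed an adjusted p of 0.05. SGR in line 2 lies farthest from 0, at -0.99, and the intervals of NYC1 and NOL include 0 in all 3 comparisons.

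SGR, the gene of the magnesium-removal step, had the largest change among the 6. It was at 35.3, 31.0 and 31.4 TPM in the WT libraries. Line 1 gave 25.8, 26.3 and 28.2 TPM, and line 2 gave 17.6, 16.2 and 14.0 TPM. The 3 groups did not overlap, with WT highest and line 2 lowest. Against WT, line 2 differed by -0.99 ± 0.09 (SE) on the log2(TPM + 1) scale, at an adjusted p of 1.03e-06 in limma, and all 17 alternative settings kept the call. The difference of line 1 was -0.27 ± 0.09 (SE), at an adjusted p of 0.035 in limma, close to the threshold. It missed the threshold in limma once libraries were quantile normalized (adjusted p = 0.0668), scaled by median ratios (adjusted p = 0.13) or fitted with a constant prior variance (adjusted p = 0.061). The adjusted p was 0.103 without WT replicate 1, 0.0543 without WT replicate 3, 0.0989 without line 1 replicate 1, 0.0759 without line 1 replicate 2 and 0.0504 without line 2 replicate 2, each in a limma fit.

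OsNAP, the senescence-promoting NAC factor, was lower in both lines with the order of the lines turned around. It was at 42.2, 41.0 and 40.1 TPM in WT. Line 1 gave 26.2, 30.0 and 29.0 TPM, and line 2 gave 35.1, 37.3 and 32.1 TPM. The groups did not overlap, and line 2 lay between WT and line 1. Line 1 differed from WT by -0.52 ± 0.07 (SE), at an adjusted p of 0.00011 in limma, and was called under all 17 alternative settings. Line 2 differed by -0.24 ± 0.07 (SE), at an adjusted p of 0.0332 in limma. The call in line 2 was lost with a constant prior variance (limma adjusted p = 0.0639). It was also lost without WT replicate 1 (0.0701), WT replicate 2 (0.079), WT replicate 3 (0.0577), line 2 replicate 1 (0.0799) or line 2 replicate 3 (0.154), each value a limma adjusted p.

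PAO, which opens the chlorophyll ring, was lower in both lines. It was at 68.5, 68.9 and 72.0 TPM in WT. Line 1 gave 51.1, 62.5 and 54.7 TPM, and line 2 gave 58.8, 60.8 and 54.3 TPM. Every mutant library lay below every WT library, and the 2 mutant lines overlapped. Line 1 differed from WT by -0.31 ± 0.07 (SE), at an adjusted p of 0.00607 in limma, and kept its call under all 17 alternative settings. Line 2 differed by -0.26 ± 0.07 (SE), at an adjusted p of 0.0182 in limma. The line 2 call was lost with a constant prior variance (limma adjusted p = 0.054), without WT replicate 3 (0.0665) and without line 2 replicate 3 (0.0898). SGR, OsNAP and PAO each had all 6 mutant libraries below all 3 WT libraries, as did 9.98% of all tested genes.

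NYC1, a chlorophyll b reductase gene, was at 83.2, 92.3 and 89.1 TPM in WT. Line 1 gave 91.9, 93.9 and 92.3 TPM, and line 2 gave 86.3, 88.5 and 92.6 TPM. The libraries of the 3 groups overlapped. The 95% interval of its difference from WT was -0.05 to 0.19 for line 1 and -0.10 to 0.14 for line 2, and the adjusted p-values in limma were 0.384 and 0.888. With median-ratio scaling NYC1 came nearer the threshold in line 1, at 0.13 ± 0.05 (SE) and an adjusted p of 0.0578 in limma. Between the lines that scaling gave -0.13, at an adjusted p of 0.0752 in limma. No alternative called NYC1 in any comparison.

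NOL, the other chlorophyll b reductase gene, had the lowest level of the 6. It was at 12.3, 11.1 and 11.2 TPM in WT. Line 1 gave 12.1, 13.6 and 11.8 TPM, and line 2 gave 12.1, 12.2 and 12.7 TPM. WT replicate 1 was higher than the lowest libraries of both lines, so the groups overlapped. The 95% interval of its difference from WT was -0.08 to 0.29 for line 1 and -0.09 to 0.27 for line 2, and the adjusted p-values in limma were 0.404 and 0.523. The intervals of NYC1 and NOL do not reach a fall of the size of that of SGR in line 2, and they do not show that the levels were equal.

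NYC3, the pheophytinase counterpart, was the highest of the 6 genes and the most variable in WT. It was at 102, 123 and 127 TPM in WT. Line 1 gave 108, 103 and 113 TPM, and line 2 gave 125, 123 and 137 TPM. Both lines overlapped WT, and WT replicate 1 lay below every other library. The difference from WT was -0.11 ± 0.08 (SE) for line 1 and 0.14 ± 0.08 (SE) for line 2, and the adjusted p-values in limma were 0.327 and 0.239. Without WT replicate 1 line 1 was called lower, by a difference of -0.21 at an adjusted p of 0.0243 in limma.

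Line 2 was then compared with line 1 directly, the test of whether the lines differ. Of the 6 genes 3 were called, 1 lower and 2 higher in line 2, where 22.0% of all tested genes were called, 6.80% lower and 15.2% higher. SGR was lower in line 2, with a log2 change of -0.72 ± 0.09 (SE) and an adjusted p of 3.27e-05 in limma, and kept its call under all 17 alternative settings. OsNAP was higher in line 2, with a log2 change of 0.28 ± 0.07 (SE) and an adjusted p of 0.0124 in limma. The call of OsNAP was lost with median-ratio scaling (adjusted p = 0.0601 in limma), without line 1 replicate 1 (0.054) and without line 2 replicate 2 (0.0736).

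NYC3 was also higher in line 2 than in line 1, with a log2 change of 0.25 ± 0.08 (SE) and an adjusted p of 0.0326 in limma. Its highest library in line 1, at 113 TPM, lay below its lowest in line 2, at 123 TPM. SGR was the 1 gene of the 6 with all libraries of line 2 below those of line 1, as were 12.0% of all tested genes, and OsNAP and NYC3 were the 2 with all of them above, as were 27.0%. The call of NYC3 was lost in 7 of the 17 alternatives. With median-ratio scaling the adjusted p in limma was 0.0951, and with a constant prior variance 0.0915. It was 0.0707 and 0.0895 without line 1 replicates 1 and 2, and 0.0621, 0.0549 and 0.137 without line 2 replicates 1, 2 and 3, in limma. For the genes not called between the lines, the 95% interval was -0.18 to 0.06 for NYC1, -0.20 to 0.17 for NOL and -0.11 to 0.21 for PAO.

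**Figure D3:**
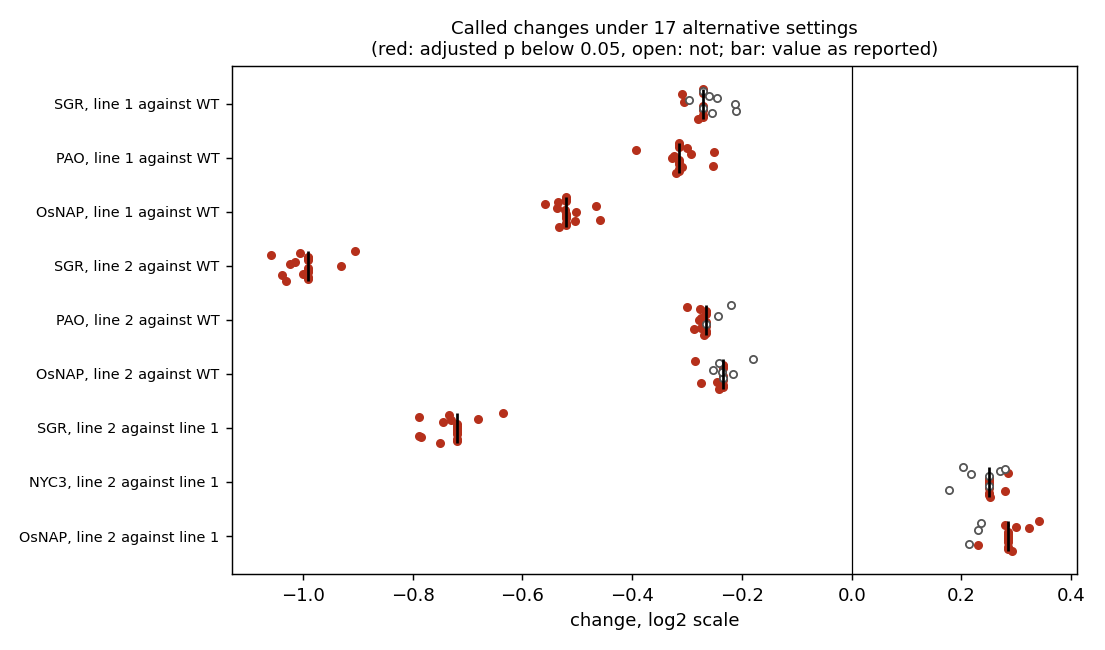
The 9 called changes of the 6 genes (rows) on the log2 scale under 17 alternative settings (points, red where the adjusted p stayed under 0.05, open where it did not) with the value as reported (bar). All points of a row lie on one side of 0, and 4 of the 9 rows have red points only.

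The levels of the genes relative to each other were described within each library, with no test, since they restate the same TPM values. The 5 enzyme genes (all but OsNAP) summed to 301 to 330 TPM in WT, against 289 to 300 TPM for line 1 and 300 to 311 TPM for line 2. SGR took 9.49% to 11.7% of that sum in WT, with 8.79% to 9.41% for line 1 and 4.50% to 5.86% for line 2. NYC3 took 33.8% to 38.3% in WT, against 34.4% to 37.7% for line 1 and 41.0% to 44.2% for line 2. The shares of SGR and NYC3 in line 2 lay outside the range of both other groups, SGR below and NYC3 above. NYC1 also separated the groups, with 27.0% to 28.3% in WT, 30.8% to 31.8% for line 1 and 28.8% to 29.8% for line 2. PAO took 21.1% to 22.7% in WT, against 17.7% to 20.9% for line 1 and 17.5% to 20.2% for line 2. The shares are parts of one sum, so a fall of one gene raises the others. The TPM of NYC3 itself overlapped between line 2 and WT.

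For the reductase genes the ratio overlapped between groups. NYC1 was between 6.76 and 8.31 times the level of NOL in WT, between 6.93 and 7.79 times in line 1 and between 7.14 and 7.28 times in line 2. The transcript of NYC3 was 2.88 to 4.03 times that of SGR in WT and 3.91 to 4.18 times in line 1, and it was 7.12 to 9.81 times in line 2. PAO was 1.94 to 2.29 times SGR in WT, 1.94 to 2.38 times in line 1 and 3.35 to 3.87 times in line 2. In both ratios line 2 stood above all other libraries.

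The ratio of SGR to OsNAP separated all 3 groups. SGR was 0.756 to 0.838 times the level of OsNAP in WT, 0.878 to 0.984 times in line 1 and 0.435 to 0.501 times in line 2. The order of the groups differed between these genes, since line 1 had the lowest OsNAP and an intermediate SGR, and line 2 had an intermediate OsNAP and the lowest SGR.

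**Figure D4:**
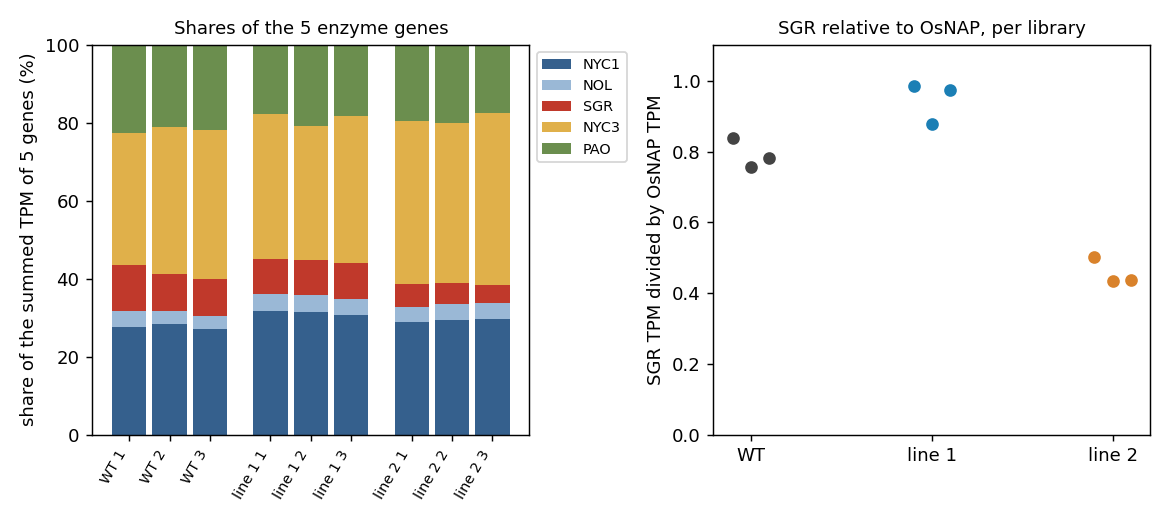
Left, share of each enzyme gene in the summed TPM of the 5 enzyme genes (%) for each of the 9 libraries; right, SGR TPM divided by OsNAP TPM per library. The SGR share is 4.50% to 5.86% in line 2 and at least 8.79% in the other libraries, and the ratio is highest in line 1 and lowest in line 2.

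Likeness of profiles was measured as the root mean square difference between centred log2(TPM + 1) values over the 9 libraries, as a description. The gene nearest to SGR was LOC_Os09g24620, at a difference of 0.0726, with 23.9 to 27.1 TPM in WT, against 21.4 to 22.4 TPM for line 1 and 12.1 to 14.2 TPM for line 2. The gene nearest to OsNAP was LOC_Os03g63900, at a difference of 0.0383, with 20.6 to 22.5 TPM in WT, against 13.5 to 15.3 TPM for line 1 and 16.2 to 18.3 TPM for line 2. Each was picked for its nearness on these same libraries, so a shared order of the 3 groups follows from that choice. No source used here names these genes.

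Within the list, PAO was the gene most like OsNAP, at a difference of 0.116 and place 322 among the other 19344 genes, and OsNAP was at place 1047 for PAO. SGR had the largest differences from the rest of the list. Profiles were centred and not scaled, so these differences also reflect the size of its changes. The nearest other gene of the 6 to SGR was PAO, at 0.368 and place 1856, and OsNAP was at 0.433 and place 6452. By place SGR was not the farthest, since the nearest of the 6 to NYC3 was NYC1, at 0.143 and place 4187. NYC1 and NOL were 0.086 apart, with NOL at place 2014 for NYC1 and NYC1 at place 521 for NOL.

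Other loci of the pathway were read from a list of 3 taken from general knowledge of rice locus identifiers. It comprised an SGR-like gene, the reductase that follows NYC1 and NOL, and the reductase that follows PAO, and single loci are not named because no source used here pairs them with a name. In line 1, 2 of the 3 were lower and 1 did not pass, where 15.7% of all tested genes were called lower. In line 2, 1 was lower and 2 did not pass, where 8.39% of all tested genes were called lower. The locus called in both lines was at 13.8 to 15.4 TPM in WT, and line 1 gave 7.97 to 8.26 TPM and line 2 gave 9.27 to 10.8 TPM. The groups did not overlap. All 6 mutant libraries lay below all 3 of WT, as for 9.98% of all tested genes, and line 2 lay above line 1, as for 27.0%. The locus was lowest in line 1, as was OsNAP. It differed from WT by -0.77 ± 0.09 (SE) in line 1 and by -0.51 ± 0.09 (SE) in line 2, at adjusted p-values of 1.15e-05 and 0.000549 in limma, and both calls held under all 17 alternatives. Its difference between the lines was 0.26, at an adjusted p of 0.0448 in limma, and that call was lost in 12 of the 17, with adjusted p-values up to 0.203. The second locus called in line 1 had an adjusted p of 0.039 in limma, and the count of lower loci in line 1 was 1 to 2 over the alternatives. It was 1 with a constant prior variance, median-ratio scaling, the replicate block, or a fit of line 1 and WT alone. It was also 1 without WT replicate 2 or 3, without line 1 replicate 2 or 3, or without any 1 library of line 2. The median change of the list was -0.17 in line 1 and -0.06 in line 2, against -0.06 and 0.00 over all tested genes.

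A list of 11 loci of chlorophyll synthesis, chosen in the same way, was set beside these. In line 1, 2 were higher and 9 did not pass, where 9.94% of all tested genes were called higher. In line 2, 3 were higher and 8 did not pass, where 13.5% of all tested genes were called higher. The median changes were 0.04 and 0.00, against -0.06 and 0.00 over all tested genes. The count of higher loci in line 1 was 1 to 4 over the 17 alternatives. It was 4 with median-ratio scaling. It was 1 with quantile normalization, with only the groups compared, with a constant prior variance, and without WT replicate 2, WT replicate 3, line 1 replicate 2 or line 1 replicate 3. In line 2 it was 2 to 3. None was called lower in either line, where 15.7% of all tested genes were called lower in line 1 and 8.39% in line 2. With quantile normalization 1 locus was called lower in line 1, and without WT replicate 1 it was 1 in each line. The locus with the largest change stood at 72.4 to 75.6 TPM in WT, and line 1 gave 75.0 to 77.3 TPM and line 2 gave 121 to 137 TPM. Line 2 lay above both other groups, which overlapped. Of all tested genes 27.0% had line 2 wholly above line 1, and the share with line 2 above both groups was not counted. The difference of this locus from WT in line 2 was 0.82 ± 0.06 (SE), at an adjusted p of 1.09e-07 in limma. Between the lines it was 0.78, at an adjusted p of 2.6e-07 in limma, and both calls held under all 17 alternatives. These loci and the alternatives for both lists were chosen after their values were seen, and whether the lists differ from each other was not tested.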

How the data were processed

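RNA sequencing libraries of rice leaves were analysed, 9 in all, grouped by their titles into WT, line 1 and line 2. The authors deposited 1 table of TPM values with a column per library, each summing to 1000000. The submitters' processing notes name fastp 0.20.1, HISAT2 2.1.10 and DESeq2 1.26.0 with no role; the genome build, annotation, quantification program and strandedness are not given in the sources used here. Reads shared between similar genes are therefore uncertain. From the deposited TPM, log2(TPM + 1) was fitted with limma 3.58.1 (R 4.3.3), a mean per group and a variance trend, over the 19345 genes whose mean reached 1 TPM. Tests were two-sided, with Benjamini-Hochberg adjustment over all of them and a threshold of 0.05. This scale understates changes of low genes. Sequencing depth is unknown.

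The 6 genes and the further lists were chosen with earlier results of these data known. All 6 are named; besides them, the rule named the gene nearest in profile to SGR and to OsNAP, and within the further lists, loci are given without names. The 17 alternatives were a pseudocount of 0.1, no minimum mean, a minimum mean of 5 TPM, 2 other scalings (quantile and median ratio), fits restricted to the compared groups, a prior variance held constant, a replicate block, and fits without each library in turn. Those for the further lists were added after the data were seen. None of the 6 identifiers is among the 39387 records of the RefSeq gene table, so no sequences or coordinates are given.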

Additional observations from a re-analysis of the deposited data

Results flagged for a closer look

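The 2 lines carry the same genotype label, and 3 of the 6 genes differed between them in limma's direct test of line 2 against line 1. SGR differed by -0.72 on the log2(TPM + 1) scale and was lower in all 3 libraries of line 2 than in any library of line 1, as were 12.0% of all tested genes. OsNAP differed by 0.28 and NYC3 by 0.25, both with all 3 libraries of line 2 above those of line 1, as were 27.0%. The median change over all tested genes was 0.07. The call of SGR held under all 17 alternatives, that of OsNAP was lost in 3 and that of NYC3 in 7, median-ratio scaling among them for both. Of all tested genes 22.0% were called in that comparison. The labels give no batch, so a batch and the line cannot be told apart.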

How the results depend on the processing

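Of the 9 called changes of the 6 genes, 4 stayed called under all 17 alternatives (SGR in line 2 against WT and against line 1, OsNAP in line 1 and PAO in line 1), 5 were lost under at least 1 alternative, and none reversed. Median-ratio scaling left 1 of the 6 genes called in line 2 against line 1. A constant prior variance left 1 called in line 2 against WT and 0 in both lines, with 2 called in line 1. The log2 changes were the same under that setting, and the SE of each lost call was larger. For PAO in line 2 against WT the SE was 0.085, against 0.074 as reported. Leaving out each library in turn gave 2 to 3 called genes in line 1, 1 to 3 in line 2, 1 to 3 between the lines and 0 to 3 in both lines. Changes that were not called could turn sign near 0. NYC1 in line 2 was at -0.0033 after quantile normalization and at -0.025 to 0.049 when single libraries were left out. PAO between the lines was at -0.022 after median-ratio scaling and at -0.014 to 0.129 without single libraries, and NOL between the lines at -0.050 to 0.040. Counts of all called genes stayed within 1.5 times of those as reported (4953 in line 1, 4236 in line 2 and 4256 between the lines), at 3909 to 5121, 3329 to 4664 and 3060 to 4861.

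With the replicate number as a block, 5076, 4301 and 4381 genes were called in line 1, in line 2 and between the lines, and 3 of the 6 genes in each and 3 in both lines. The labels do not say that a number marks anything shared, so the numbers were not taken to pair the samples in the fits as reported. The correlation of the deviations of same-numbered libraries was above 0 in all 9 pairs, at 0.0116 to 0.212, though no comparison had all 3 of its pairs over 0.1. In 15 of 18 combinations of a library and another group it was highest for the same number. These combinations reuse the same pairs of libraries from both sides, so they are not separate. The count is a hint from the data, not the design, and was given no test. Depth is unknown, so no counting error could be given.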
